A study of Mus musculus with 6 samples.

Results

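Sst, Npy, Calb1, Maf, Npas1, Sox6, Satb1 and Tiam2 are genes of interneuron maturation and interneuron subtype, and their levels were followed in cells of the mouse medial ganglionic eminence (MGE). They were taken by gene name from a table of raw read counts, where 8 of 38561 genes carried these names. All 8 had enough reads to be tested, among 16495 genes that did. The study asked how the loss of 1 allele of Magoh, a subunit of the complex left on exon junctions after splicing, changes these cells.

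RNA was sequenced from C57BL/6 embryos at E11.5 (embryonic age in days). The 4 control libraries came from Nkx2.1-Cre; ROSAloxSTOPloxTdTomato embryos, and the 2 heterozygous libraries from embryos that also carried Magoh lox/+. Both groups therefore carried the Cre and the reporter, and the heterozygous cells kept an intact Magoh allele. Telencephalic cells positive for tdTomato were sorted by flow cytometry. The Cre is driven by Nkx2-1, a factor that is also active in the neighbouring preoptic area and hypothalamus. The labels do not say whether a library is 1 embryo or a pool, and so every p-value rests on the spread among these 6 samples, which may be technical.

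The MGE makes the cortical interneurons that later contain parvalbumin or somatostatin. Its dividing cells express Nkx2-1, and their daughters switch on Lhx6 as they leave the cell cycle. Lhx6 acts upstream of Sox6 and Satb1, which are needed for the placement and maturation of these neurons. Maf and Npas1 are further transcription factors of young interneurons. Sst and Npy encode the neuropeptides somatostatin and neuropeptide Y, Calb1 encodes the calcium-binding protein calbindin, and Tiam2 encodes an activator of the small GTPase Rac, which acts on the cytoskeleton.

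Sst and Npy are the neuropeptide genes of the set, and short stretches before their start sites are shown. The first stretch is 30 bases around the cAMP response element of Sst, and the capitals mark that element, TGACGTCA.
Sst (chr16:23890874-23890903, minus strand, GRCm38.p6): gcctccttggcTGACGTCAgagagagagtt
Npy (chr6:49822460-49822709, plus strand, GRCm38.p6): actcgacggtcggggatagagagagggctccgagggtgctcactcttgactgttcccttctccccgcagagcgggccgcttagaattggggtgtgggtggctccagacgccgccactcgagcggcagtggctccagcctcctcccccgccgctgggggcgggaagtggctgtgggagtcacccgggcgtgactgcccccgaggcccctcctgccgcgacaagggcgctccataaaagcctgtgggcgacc
Both are RefSeq sequence. The element of Sst begins 48 bases before the RefSeq start, and in GENCODE M21 the first exon of Sst starts 114 bases before that RefSeq start and so includes it. The Npy stretch is the 250 bases before the start, and it holds neither motif that was searched. RefSeq windows of this length were found for 6 of the 8 genes, 17 windows in all. TGACGTCA was in 1 of them, that of Sst, and in 1.55% of all 32851 promoter windows. TAATTA, a core bound by many homeodomain proteins, was in 0 of the 17 and in 4.84% of all windows. Both strands were searched, and a match or its absence describes the letters of the window only.

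The libraries held 37429290 to 49189360 counted reads. The sorted cells carried the markers of their labels: Nkx2-1 stood at 339 to 561 CPM (counts relative to the library total, scaled for composition) and Lhx6 at 51.3 to 243 CPM. Control levels of Magoh averaged 81.0 ± 25 CPM (SD, n = 4), and heterozygous libraries 1 and 2 were below every control at 57.1 and 48.5 CPM. Its log2 fold change was -0.62 (standard error 0.27, edgeR, adjusted p = 0.85). Reads of 4 Y-linked genes numbered 0 in control 2 and in heterozygous library 1, and long transcripts were low against short ones in that same pair. The median deviation of transcripts of at least 8000 nt minus that of transcripts under 1000 nt was -0.77 and -0.37 log2 units there, against 0.08 to 0.34 in the other 4 libraries. Sex and this length difference cannot be told apart.

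Heterozygous library 2 held the highest level of 7 of the 8 genes, and Maf was the exception. Over all genes tested, that library was the highest of the 6 for 17.4% and above all controls for 19.9%. Heterozygous library 1 lay within the control range for 4 of the 8, against 64.4% of all genes, above it for Sst and Calb1 and below it for Maf and Satb1. Both heterozygous libraries thus lay outside the control range on the same side for Sst, Calb1 and Maf only. These were 3 of the 8, against 14.3% of all genes. The mean deviation of the 8 genes from the control mean was 1.24 log2 units in heterozygous library 2 and -0.15 in heterozygous library 1, with controls at -0.14 to 0.21. Maf stood at -3.03 in heterozygous library 1. Without Maf the mean was 1.58 in heterozygous library 2 and 0.26 in heterozygous library 1, with controls at -0.25 to 0.27. In bulk RNA, more cells that express a gene and more RNA per cell cannot be told apart.

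**Figure D1:**
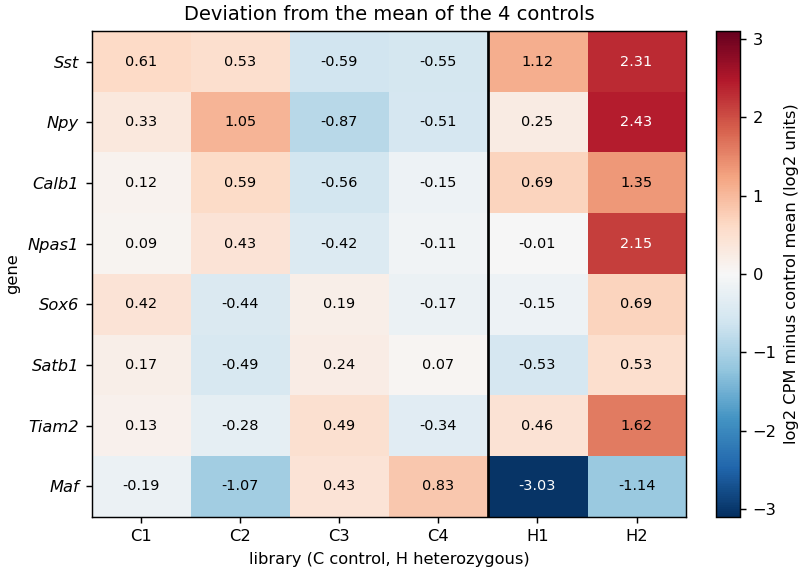
Each cell gives a gene's log2 CPM in a library minus the mean of the 4 controls (colour scale in log2 units, rows genes, columns controls C1 to C4 and heterozygous libraries H1 and H2). The H2 column is positive for 7 genes, up to 2.43 for Npy, while H1 runs from -3.03 for Maf to 1.12 for Sst.

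No gene of the set was called between genotypes. With edgeR's quasi-likelihood test and adjustment over all genes, 0 of 8 passed (smallest adjusted p = 0.793), as did 0% of the 16495 genes tested. At an unadjusted p under 0.05, 4 of 8 were higher in heterozygous cells (Sst, Calb1, Npas1 and Tiam2) and 1 was lower (Maf), against 1.75% higher, 3.98% lower and 5.72% in either direction over all genes. DESeq2 called 61 genes, 0.362% of those it tested, and limma-voom called 0%, and neither called any of the 8. The smallest adjusted p of a member with DESeq2 was 0.0714, for Maf. The log2 fold change was above 0 for 7 of 8, against 46.1% of all genes, with a median of 1.06 against -0.03 over all genes. Without heterozygous library 2 it was above 0 for 4 of 8 (Sst, Calb1, Tiam2 and, at 0.06, Npy), and the median was 0.0035. In that fit the median over all genes was -0.05, and the share of all genes above 0 was not computed. Both heterozygous libraries lay outside the control range for 3 of 8 (Sst and Calb1 above, Maf below), against 6.17% of all genes above and 8.14% below. The genes were chosen with earlier results of these data known, so these counts are descriptions.

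Sst (ENSMUSG00000004366, chromosome 16, 23889573 to 23890958, minus strand, GRCm38) had its highest levels in the heterozygous libraries. It stood at 3.67, 3.48, 1.57 and 1.61 CPM in controls 1 to 4 and at 5.25 and 12 CPM in heterozygous libraries 1 and 2. The groups did not overlap, but the heterozygous libraries differed from each other by 2.29-fold, nearly as much as the 2.34-fold between the highest and lowest control. This gave a log2 fold change of 1.75 (standard error 0.48, edgeR, adjusted p = 0.793), which was 1.02 without heterozygous library 2. These levels rest on 71 to 591 reads per library. Counting error was small beside the spread between libraries, with an exact Poisson 95% interval of 1.23 to 1.98 CPM in control 3, the lowest.

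Npy (ENSMUSG00000029819, chromosome 6, 49822710 to 49829507, plus strand) was high in heterozygous library 2 alone. Controls 1 to 4 gave 2.25, 3.73, 0.950 and 1.23 CPM, whereas heterozygous libraries 1 and 2 gave 2.12 and 9.78 CPM. Heterozygous library 1 sat in the middle of the controls, and heterozygous library 2 was 2.62-fold above control 2, the highest of them. The log2 fold change of 1.55 had a standard error of 0.68 (edgeR, adjusted p = 0.85). Without heterozygous library 2 it was 0.06.

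Calb1 (ENSMUSG00000028222, chromosome 4, 15881264 to 15908064, plus strand) separated the groups by a narrow margin. Its levels were 30.5, 42.4, 19.1 and 25.3 CPM in the 4 controls, against 45.4 and 71.5 CPM in heterozygous libraries 1 and 2. Control 2 and heterozygous library 1, the pair without Y-linked reads, were close to each other, with 95% counting intervals of 40.3 to 44.6 and 43.4 to 47.5 CPM that overlapped. Between genotypes the log2 fold change was 1.0 (standard error 0.32, edgeR, adjusted p = 0.793), and it was 0.63 without heterozygous library 2.

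Tiam2 (ENSMUSG00000023800, chromosome 17, 3326573 to 3531344, plus strand), the Rac activator, stood at 4.10, 3.06, 5.26 and 2.95 CPM in controls 1 to 4. Its heterozygous levels were 5.16 and 11.6 CPM, so that heterozygous library 1 lay just under control 3. Heterozygous library 2 was 2.21-fold above the highest control. Its log2 fold change was 1.13 (standard error 0.38, edgeR, adjusted p = 0.832), and it was 0.42 without heterozygous library 2. The exons of Tiam2 overlap those of Tfb1m, which lies on the opposite strand, by 142 nt. Tfb1m itself varied little, from 9.14 to 11 CPM over the 6 libraries.

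**Figure D2:**
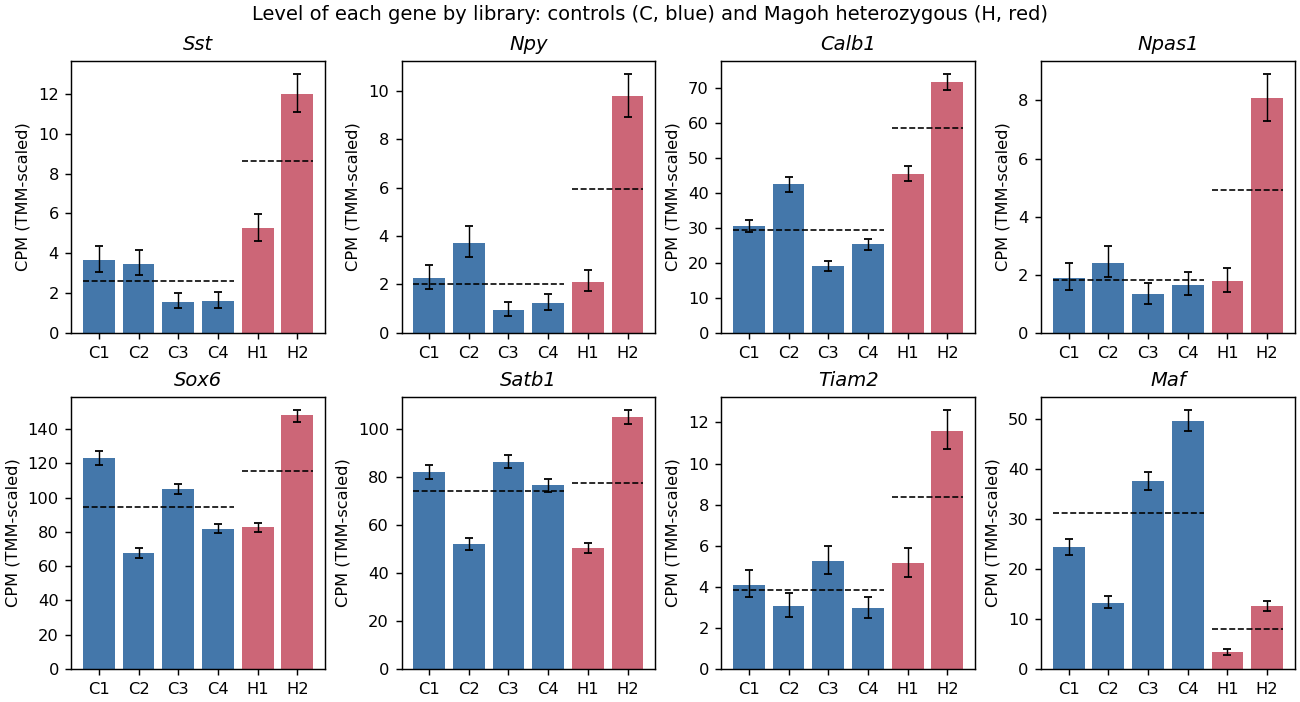
Bars give the CPM of each gene in controls C1 to C4 (blue) and heterozygous libraries H1 and H2 (red), with exact Poisson 95% counting intervals and dashed lines at the group means. H2 is the tallest bar for every gene but Maf, and H1 stands above all controls for Sst and Calb1 only.

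Npas1 (ENSMUSG00000001988, chromosome 7, 16455721 to 16477728, minus strand), a transcription factor of the basic helix-loop-helix PAS family, was high in heterozygous library 2 alone. It stood at 1.9, 2.42, 1.33 and 1.66 CPM in controls 1 to 4, at 1.77 CPM in heterozygous library 1 and at 8.07 CPM in heterozygous library 2. The last value was 3.34-fold above the highest control, while the controls spanned 1.83-fold. The log2 fold change of 1.43 (standard error 0.55, edgeR, adjusted p = 0.85) became -0.05 without heterozygous library 2. In that library Sst, Npy, Npas1 and Tiam2, 4 of the 8 genes, were at least 2-fold above the highest control, against 0.915% of all genes.

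Sox6 (ENSMUSG00000051910, chromosome 7, 115470872 to 116038796, minus strand), a factor that acts downstream of Lhx6, overlapped between the groups. Controls 1 to 4 had 123, 67.6, 105 and 81.8 CPM, and heterozygous libraries 1 and 2 had 82.6 and 148 CPM. Heterozygous library 2 was 1.20-fold above control 1, the highest control. A log2 fold change of 0.29 was estimated (standard error 0.30, edgeR, adjusted p = 0.999).

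Satb1 (ENSMUSG00000023927, chromosome 17, 51736187 to 51833290, minus strand), a chromatin organizer, had heterozygous libraries on opposite sides of the controls. Its levels were 82.0, 52.1, 86.4 and 76.6 CPM in controls 1 to 4, at 50.5 CPM in heterozygous library 1 and at 105 CPM in heterozygous library 2. The log2 fold change was 0.07 (standard error 0.32, edgeR, adjusted p = 0.999). Sox6 and Satb1 had the most similar profiles of any pair among the 8 genes, with a root mean square difference of 0.20 log2 units over the 6 centred libraries. Both have long exon sequence (14832 and 19027 nt), and both were lowest among controls in control 2, the library in which long transcripts were lowest. Maf (8241 nt) was also lowest among controls in control 2, at 13.2 CPM. Tiam2 (12741 nt) was lowest in control 4, at 2.95 CPM against 3.06 CPM in control 2. The part of length in these levels was not tested. With the trends on length and GC content removed from each library, the log2 fold changes of Sox6 and Satb1 were 0.44 and 0.23. The same step gave a median of 1.16 over the 8 genes, with Sst at 1.74 and Maf at -1.88.

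Maf (ENSMUSG00000055435, chromosome 8, 115682942 to 115707794, minus strand) is a leucine zipper transcription factor of young interneurons. It was the only gene of the 8 with a log2 fold change below 0 over all 6 libraries. Its control levels were 24.4, 13.2, 37.5 and 49.6 CPM, and its heterozygous levels were 3.37 and 12.6 CPM. Both heterozygous libraries were below all controls, but heterozygous library 2 and control 2 had overlapping counting intervals, 11.6 to 13.6 and 12.1 to 14.5 CPM. For Maf the log2 fold change was -1.96 (standard error 0.66, edgeR, adjusted p = 0.816). It ran from -3.22 without heterozygous library 2 to -0.95 with the number in the sample codes as a replicate block. Macrophages also express Maf, and summed CPM of 12 microglia and macrophage genes was highest in control 4, where Maf was highest too (100 CPM, against 3.62 to 4.53 in the other controls). It was 14.3 CPM in heterozygous library 1, which had the lowest Maf, and 0.488 CPM in heterozygous library 2. Without control 4 the log2 fold change of Maf was -1.65. Gm15655, an antisense gene that overlaps 440 nt of Maf exons, had at most 7 reads in a library.

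**Figure D3:**
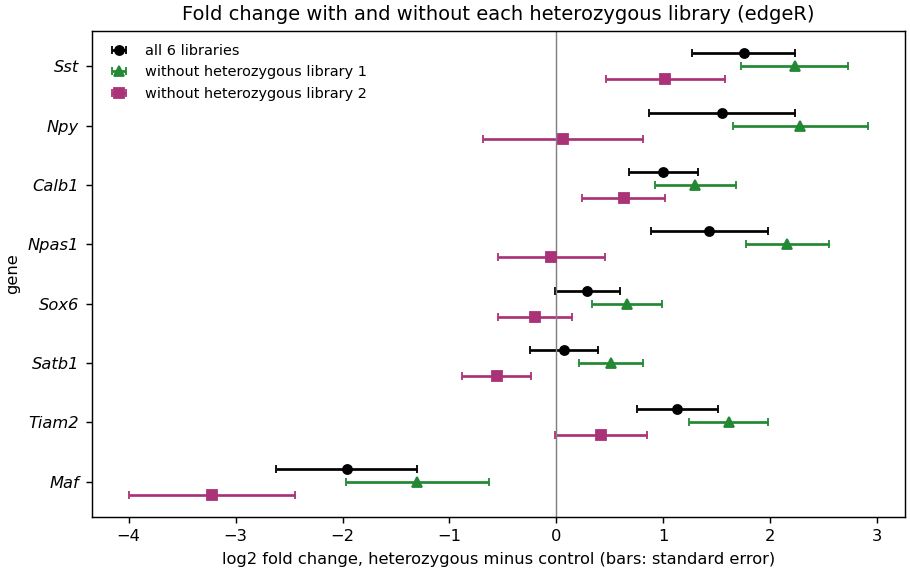
Points give edgeR's log2 fold change, heterozygous minus control, with bars of 1 standard error, for all 6 libraries (black), without heterozygous library 1 (green) and without heterozygous library 2 (purple). Without heterozygous library 2, Npy and Npas1 lie at 0.06 and -0.05, and Maf moves to -3.22.

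The difference was also taken within the libraries without Y-linked reads (heterozygous library 1 minus control 2) and among the other 4 (heterozygous library 2 minus controls 1, 3 and 4). Each of these contrasts rests on 1 heterozygous library. For Sst the values were 0.59 and 2.49 log2 units, for Calb1 0.10 and 1.54, for Tiam2 0.74 and 1.53 and for Sox6 0.29 and 0.54. For Npy, Npas1 and Satb1 the contrasts had opposite signs. Npy differed by -0.80 and 2.78, Npas1 by -0.44 and 2.29, and Satb1 by -0.05 and 0.37. Maf was lower in both, by -1.96 and -1.50. Heterozygous library 2 and control 1 share the number 70 in their sample codes, and between this pair the difference was 1.70 for Sst, 2.1 for Npy, 2.06 for Npas1 and -0.95 for Maf. The labels do not say what that number marks.

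Levels of different genes can be compared only per length, as TPM (transcripts relative to the sum over all genes) over the merged exons. In controls Sox6 stood at 15.9 ± 6.06 TPM, Calb1 at 13.9 ± 1.75, Maf at 9.90 ± 6.18, Satb1 at 9.82 ± 3.70, Sst at 8.22 ± 2.95 and Npy at 7.87 ± 2.91 TPM (SD, n = 4). Each of these 6 overlapped its neighbour in the order. Npas1, at 1.42 ± 0.134 TPM, lay below all 4 control values of Npy, and Tiam2, at 0.754 ± 0.334 TPM, lay below all control values of Npas1. Lhx6 stood at 42.4 ± 18.2 TPM, a mean above that of each of the 8. In heterozygous library 2 the order changed, with Npy at 44.0, Sst at 42.4 and Calb1 at 37.5 TPM ahead of Sox6 at 25.3 TPM. TPM was not scaled for composition between libraries, and the separation of the groups depended on the scale. In TPM Maf no longer separated the groups, since control 2, at 2.66 TPM, lay below heterozygous library 2, at 3.88 TPM. Calb1 instead stood further apart than in CPM, at 21.8 and 37.5 TPM against 11.4 to 15.4 in controls.

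**Figure D4:**
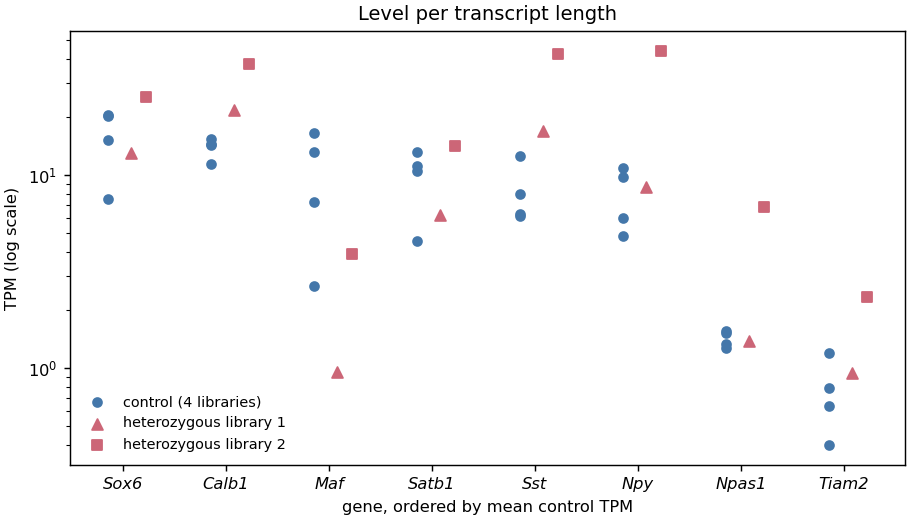
TPM on a log axis for each gene, ordered by its control mean, with 4 control libraries (blue circles) and heterozygous libraries 1 (triangle) and 2 (square). Npy and Sst reach 44.0 and 42.4 TPM in heterozygous library 2, above every other library.

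Lhx6 itself was high in heterozygous library 2, at 243 CPM against 51.3 to 110 in controls and 70.8 CPM in heterozygous library 1 (log2 fold change 0.92, standard error 0.47, edgeR, adjusted p = 0.885). Levels set against another gene of the same library depended on which gene was used. Against Lhx6, the peptide genes did not stand apart in heterozygous library 2. Sst gave 4.95 reads per 100 Lhx6 reads in heterozygous library 2, where controls gave 1.58 to 4.96, and Npy gave 4.03, where controls gave 0.956 to 5.32. Npas1, at 3.33, and Calb1, at 29.5, were also within their control ranges of 1.33 to 3.46 and 19.2 to 60.6. Sox6 and Satb1 were instead below all controls by this measure, although in CPM both were highest in that library, at 148 and 105. The divisor, Lhx6, was itself above all controls there, and the share of all genes below their controls by this ratio was not computed. Sox6 gave 60.9 reads per 100 Lhx6 reads in heterozygous library 2 against 96.5 to 159, and Satb1 gave 43.3 against 74.3 to 149. Maf was below all controls in both heterozygous libraries, at 4.76 and 5.19 against 18.9 to 96.6. In heterozygous library 1, where Lhx6 was within the control range, Sst, Calb1 and Tiam2 were above every control at 7.42, 64.2 and 7.29 reads per 100 Lhx6 reads, and Satb1 was below every control at 71.3. Nkx2-1, the progenitor factor, overlapped between the groups, at 349 and 466 CPM in the heterozygous libraries against 339 to 561 in controls. Against Nkx2-1, Sst gave 2.58 reads per 100 in heterozygous library 2 where controls gave at most 0.926, and Npy gave 2.1 where controls gave at most 0.992. Calb1, Npas1, Sox6 and Tiam2 were also above all controls in that library by this measure, and Maf was below all controls in both heterozygous libraries. Heterozygous library 1 was above all controls for Sst, Calb1 and Tiam2, at 1.51, 13.0 and 1.48 against at most 0.926, 11.3 and 0.937.

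**Figure D5:**
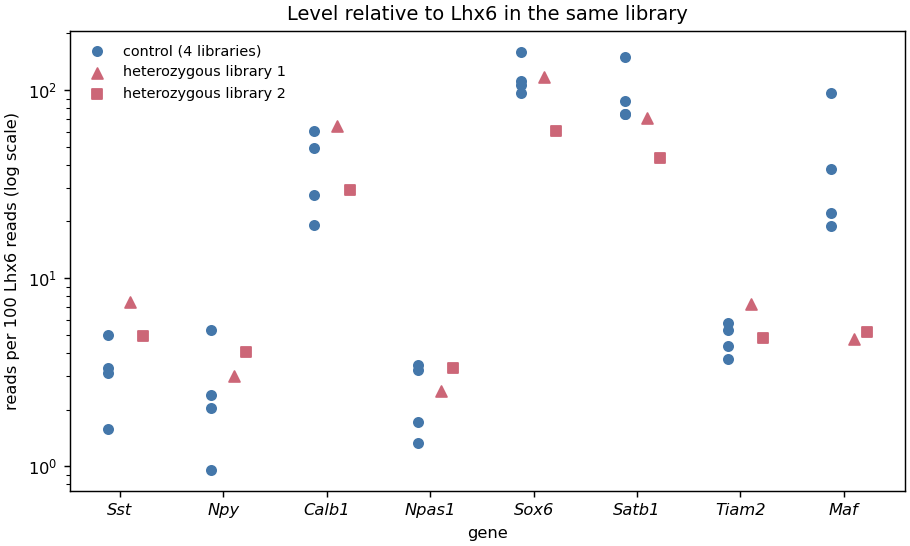
Reads of each gene per 100 Lhx6 reads in the same library, on a log axis, for 4 controls (blue circles) and heterozygous libraries 1 (triangle) and 2 (square). In heterozygous library 2, Sox6 and Satb1 lie below all controls at 60.9 and 43.3, while Sst lies at 4.95 within them. Lhx6 itself was above all controls in that library.

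Other genes of the postmitotic MGE programme were read from a list of 19, without the 8 described above. None was called by edgeR, as with 0% of all genes. A log2 fold change above 0 was seen for 15 (median 0.31), against 46.1% of all genes (median -0.03). Against 17.4% of all genes, 12 of these 19 were highest in heterozygous library 2. Dcx, Robo1 and Lhx6 were among the most abundant. Dcx, a microtubule protein of migrating neurons, stood at 156 to 361 CPM in controls and at 376 and 420 CPM. Robo1, a Slit receptor, overlapped between groups at 83.3 to 248 against 140 and 271 CPM.

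Markers of other interneuron subtypes were described in the same way. Of 24 listed, 20 were tested and 0 were called, as with 0% of all genes. On the log2 scale 12 were above 0 (median 0.15), against 46.1% of all genes (median -0.03). Of the 20, 4 were highest in heterozygous library 2, against 17.4% of all genes. Prox1, a factor of caudal eminence interneurons, ranged from 47.3 to 87.1 CPM over controls, with heterozygous libraries at 81.4 and 124 CPM, and it alone had an unadjusted p under 0.05 (log2 fold change 0.68, standard error 0.28, edgeR, adjusted p = 0.85). Nr2f2, another caudal factor, stood at 80.2 to 131 CPM in controls and at 150 and 134 CPM. Reln, a secreted signal of neuronal placement, stood at 35.8 to 61.4 against 55.0 and 28.2 CPM, and Th, an enzyme of dopamine synthesis, at 13.4 to 26.2 against 26.6 and 31.5 CPM. Several markers of mature interneurons were at trace levels or not detected. Pvalb, the parvalbumin gene, had 7 reads in heterozygous library 1, 2 in control 1 and 0 elsewhere, and Vip had 0 reads in all 6 libraries, which allows up to 0.0610 to 0.0802 CPM.

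The genes with the most similar profile over the 6 libraries were sought among 9070 genes of at least 10 CPM, or 9069 where the gene itself was 1 of them. The measure was the root mean square difference of centred log2 CPM. For Sst they were Fstl5 (0.359) and Calb1 (0.447), and for Npy Calb1 (0.545) and Slc32a1 (0.602), the vesicular GABA transporter. For Calb1 they were Arl4d (0.220) and Hmx3 (0.237), a homeobox factor of the hypothalamus, and for Npas1 Fam65b (0.373) and Arl4d (0.428). Tiam2 was closest to Dlx1as (0.208), an antisense RNA of the Dlx1 locus, and Sp9 (0.234), a factor of ganglionic eminence neurons. Control levels of Sp9 averaged 69.3 ± 19.8 CPM (SD, n = 4), beside 66.8 and 195 CPM in heterozygous libraries 1 and 2. Sox6 was closest to Map3k9 (0.043) and Ttbk1 (0.055), Satb1 to Zfp790 (0.083) and Arid3b (0.084), and Maf to Epha2 (0.404) and Tbx3 (0.439). Tbx3, a T-box factor, averaged 73.1 ± 40.0 CPM over controls (SD, n = 4), beside 15.9 and 35.0 CPM in the heterozygous libraries. Sst, Npy, Npas1 and Tiam2 averaged under 10 CPM and so were not candidates. By the same measure Npy was 0.39 from Npas1 and 0.43 from Sst, closer than to Calb1. These likenesses are descriptions over 6 libraries and were not tested.

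Markers of other cell classes that the sort could hold also differed between libraries. The 18 pan-neuronal genes had a mean deviation from the control mean of 0.29 and 0.65 log2 units in heterozygous libraries 1 and 2. Controls stood at -0.24 to 0.40. Against 46.1% of all genes, 16 of the 18 had a log2 fold change above 0 (median 0.49). Of these 18, 7 were above all controls in both heterozygous libraries, against 6.17% of all genes. Below all controls were 0 of the 18, against 8.14% of all genes. Their most abundant gene, the tubulin Tubb3, stood at 994 to 1550 CPM in controls and at 1880 and 2010 CPM. The 16 radial glia and progenitor genes stood at -0.37 and -0.31, with controls at -0.18 to 0.13. Sst, Npy and Calb1 are also made by hypothalamic neurons, and 7 of 14 tested hypothalamic and preoptic genes were above all controls in both heterozygous libraries, against 6.17% of all genes. In the same list 1 gene was below all controls, against 8.14% of all genes. This was Rax, a homeobox factor of the eye field and hypothalamus, at 46.7 and 47.6 CPM against 61.0 to 133 in controls. The 15 listed hypothalamic and preoptic genes summed to 720 and 672 CPM in heterozygous libraries 1 and 2, within the control range of 530 to 861. Their most abundant gene, the homeobox factor Dbx1, stood at 222 to 416 CPM in controls and at 246 and 195 CPM. Markers of blood and mesenchyme were low in heterozygous library 2. The summed level of 13 erythroid genes was 1.34 CPM there, against 32.8 to 140 CPM in controls and 377 CPM in heterozygous library 1. That of 14 mesenchyme and neural crest genes was 88.7 CPM, against 138 to 228 and 221 CPM. Endothelial and pericyte genes summed to 27.1 and 16.9 CPM, within the control range of 12.4 to 40.3, and surface ectoderm and lens genes to 18.8 and 12.5 CPM against 18.1 to 27.4, with Krt14 at 0 reads. The sums of cortical excitatory genes were 275 and 291 CPM against 190 to 270 in controls, and those of lateral and caudal eminence genes 424 and 513 CPM against 293 to 454. The part of these classes in the levels of the 8 genes was not tested.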

How the data were processed

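The tools named, per the submitters' processing notes, are HTSeq, STAR and Trim Galore, with build mm10 and no versions. Annotation and strand setting: not given in the sources used here. Reads of overlapping antisense genes therefore cannot be assigned with certainty. The authors deposited raw counts for 38561 genes, with 0 rows that name no gene, and a normalized signal for 18065 genes, which was checked to be the count over 1 factor per library. Of the gene IDs, 36723 matched GENCODE M21.

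Genes were kept by filterByExpr, scaled by TMM and tested with edgeR 4.0.16 (glmQLFit, robust; glmQLFTest, two-sided; R 4.3.3) on the counts as deposited, with Benjamini-Hochberg adjustment over 16495 genes and a threshold of 0.05. Standard errors are the absolute log2 fold change over the square root of F. With 4 against 2 libraries the smallest p of an exact permutation test is 0.0667. Log2 CPM used a prior count of 2. Counting intervals and the floor of 3 counts cover counting error only. The script was tested on simulated data. Alternatives were DESeq2 1.42.0, limma 3.58.1 (voom, and trend on log2 of the deposited signal plus 1), RLE scaling, other filters, no robust fitting, a block, Y-linked reads, length and GC trends, and leaving out each library.

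The members and lists were chosen with earlier results of these data known. Named genes were the members, for each the 2 most similar profiles among genes without clone names, the 4 most abundant others of the list of subtype markers and of the MGE programme list, genes of those lists at an unadjusted p under 0.05, and abundant markers of other lists. Rax, Pvalb and Vip were added after their values were seen. Some genes are not reported here. The list of MGE progenitor factors had a median log2 fold change of 0.51 over 11 genes.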

Additional observations from a re-analysis of the deposited data

How the results depend on the processing

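No gene of the 8 was called under any of the 16 alternatives. Sst, Npy, Calb1 and Tiam2 stayed above 0 and Maf below 0 in all 16. DESeq2 called 61 genes in all. With the number in the sample codes as a replicate block, 11 genes were called, and the median of the 8 was 1.37. Only 1 number occurs in both genotypes, so that fit rests on control 1 and heterozygous library 2, and no pairing could be checked. Leaving out each library gave a median of 0.0035 (without heterozygous library 2) to 1.45 (without heterozygous library 1), against 1.06 with all. The genes outside the control range then numbered 3 to 8, where 8 comes from heterozygous library 2 standing alone. The log2 fold change then ran from -0.05 to 2.16 for Npas1, -0.20 to 0.66 for Sox6 and -0.56 to 0.51 for Satb1, each negative without heterozygous library 2. Satb1 was also -0.06 without control 2 and -0.00037 with limma-voom. The cause was not tested. Npas1, with 60 to 397 reads, and Npy, with 43 to 481, had the widest counting intervals relative to their levels.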
